A study of Homo sapiens with 4 samples.

Results

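The HSP70 family was examined in ribosome profiling of HEK293T, an established line of human embryonic kidney origin with the large T antigen of simian virus. The members were taken by gene name from 4 deposited tables, 1 per library. Of 9 named members, HSPA1A, HSPA1B, HSPA4, HSPA4L and HSPH1 were listed, each as 1 transcript and each in all 4 tables, among 9271 transcripts listed in any table and 8568 listed in all 4. HSPA8, HSPA9, HSPA13 and HSPA14 were not analysed here. The untreated group and the G418 group each had 2 biological replicates, A and B, and G418 was given at 500 µg/mL for 24 hr. This aminoglycoside acts where the ribosome reads codons and makes it miss stop codons. All cells were of this single line and were lysed with cycloheximide. Only ribosome protected fragments (RPFs, the mRNA pieces that a ribosome shields from nuclease) were measured, so the amount of an mRNA and its translation cannot be told apart.

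HSP70 proteins are chaperones that bind exposed hydrophobic stretches of unfolded proteins and let go of them in a cycle of ATP binding and hydrolysis. J proteins bring substrates and start hydrolysis, and nucleotide exchange factors release ADP so that the substrate leaves. HSPA1A and HSPA1B encode the stress-inducible HSP70 of the cytosol, whose transcription is driven by the factor HSF1 when misfolded proteins accumulate. HSPA4, HSPA4L and HSPH1 belong to the larger HSP110 branch of the family, whose proteins act mainly as nucleotide exchange factors for HSP70. HSPA8 is the constitutive cytosolic member, HSPA9 the mitochondrial member, HSPA13 a member of the endoplasmic reticulum and HSPA14 a member that works at the ribosome.

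The stop codons at which these mRNAs normally end translation (normal termination codons, NTCs) are shown because readthrough was measured at them. In each line the NTC and the nucleotide that follows it (+4) are in capitals, with 15 nt of coding sequence (CDS) before and 11 nt of 3′UTR after, on the coding strand of hg38.
HSPA1A: attgaggaggtagatTAGGggcctttccaa
HSPA1B: attgaggaggtggatTAGGggcctttgttc
HSPA4: gaaatggacattgatTGATtccaacacttg
HSPA4L: gagatggaagtggacTAAGtcttaatttta
HSPH1: aatatggacttggacTAGAtaaccttaaat

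These NTCs lie in the last exon, followed by the 3′UTR, at chr6:31817680-31817682 (HSPA1A, plus strand), chr6:31829874-31829876 (HSPA1B, plus strand), chr5:133104434-133104436 (HSPA4, plus strand), chr4:127832872-127832874 (HSPA4L, plus strand) and chr13:31137318-31137320 (HSPH1, minus strand). All 3 kinds of stop codon were present among the members, and the codon before the NTC was GAT or GAC, both for aspartate, in all 5. HSPA1A and HSPA1B are neighbouring genes of 1 exon each with the same 4 nt signal, UAGG. Their CDSs of 1926 nt differed at 4 nt, and their proteins of 641 residues did not differ. The 8 nt after the NTC were identical in both, beyond which the 3′UTRs diverged. A ribosome that reads through can go on to the first in-frame stop codon in the 3′UTR (3′TC). The first 3′TC started 55 nt after the NTC in HSPA1A, 115 nt in HSPA1B, 43 nt in HSPA4, 49 nt in HSPH1 and 22 nt in HSPA4L.

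Libraries held 2440204 to 6082600 RPFs on mRNAs, and untreated B was the shallowest. The readthrough score (ribosome readthrough score, RRTS) is the RPF density between the NTC and the first 3′TC divided by the CDS density. Over all transcripts that passed the study's minimum of mRNA reads, RRTS was 1.97% and 1.64% in the untreated libraries and 15.8% and 15.0% in the G418 libraries (A and B). Being listed takes at least 1 RPKM (reads scaled to the length of the region and to the depth of the library). All 8 markers of HEK293T cells were listed in every table, at 1.45 to 658 RPKM. The lowest, KRT8, had 1.45 to 2.13 RPKM, near that minimum. Of the markers of other cell types reported here, COL1A1 was listed in every table at 3.59 to 5.54 RPKM, above KRT8, and 6 were listed in none.

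The CDS of the stress-inducible pair was densely translated in both conditions and slightly less so with G418. The CDS density of HSPA1B was 1011 and 1085 RPKM in untreated cells and 925 and 861 RPKM in G418-treated cells. For HSPA1A it was 931 and 949 RPKM in untreated cells and 858 and 778 RPKM in G418-treated cells. Both untreated libraries lay above both G418 libraries for each gene. CDS counts were tested by edgeR's quasi-likelihood test across 8494 transcripts with Benjamini-Hochberg adjustment at 0.05. HSPA1B fell by 0.31 on the log2 scale (SE 0.08, adjusted p = 0.0114), and HSPA1A fell by 0.28 (SE 0.08, adjusted p = 0.0199). Both fell within the A libraries and within the B libraries, and untreated cells had 1.24 and 1.21 times the G418 level. So 2 of 5 members were lower and 0 of 5 were higher, where 3.21% of all transcripts tested were lower and 5.31% were higher. At an unadjusted p of 0.05, edgeR and DESeq2 each also gave 0 members higher. Without the share of all transcripts at that threshold, nothing particular to the members can be read from this count. The 2 calls are not independent, because most reads of the pair could come from either gene, and the summed counts of the pair fell by 0.29 (adjusted p = 0.0109).

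The HSP110 members changed less than their replicates differed. HSPA4 had 289 and 236 RPKM in untreated cells and 284 and 250 RPKM in G418-treated cells. HSPH1 had 209 and 164 RPKM in untreated cells and 190 and 171 RPKM in G418-treated cells. HSPA4L had 74.9 and 60.1 RPKM in untreated cells and 67.4 and 61.4 RPKM in G418-treated cells. In all 3 the untreated and G418 values overlapped. Their log2 fold changes were -0.05 (SE 0.08, adjusted p = 0.774), -0.12 (SE 0.09, adjusted p = 0.425) and -0.15 (SE 0.09, adjusted p = 0.373) in edgeR. The median over the 5 members was -0.15, beside 0.00 over all transcripts tested. From highest to lowest CDS density the order was HSPA1B, HSPA1A, HSPA4, HSPH1 and HSPA4L. The ranges of HSPA1B and HSPA1A overlapped over the 4 libraries, and no other neighbours in this order overlapped.

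**Figure D1:**
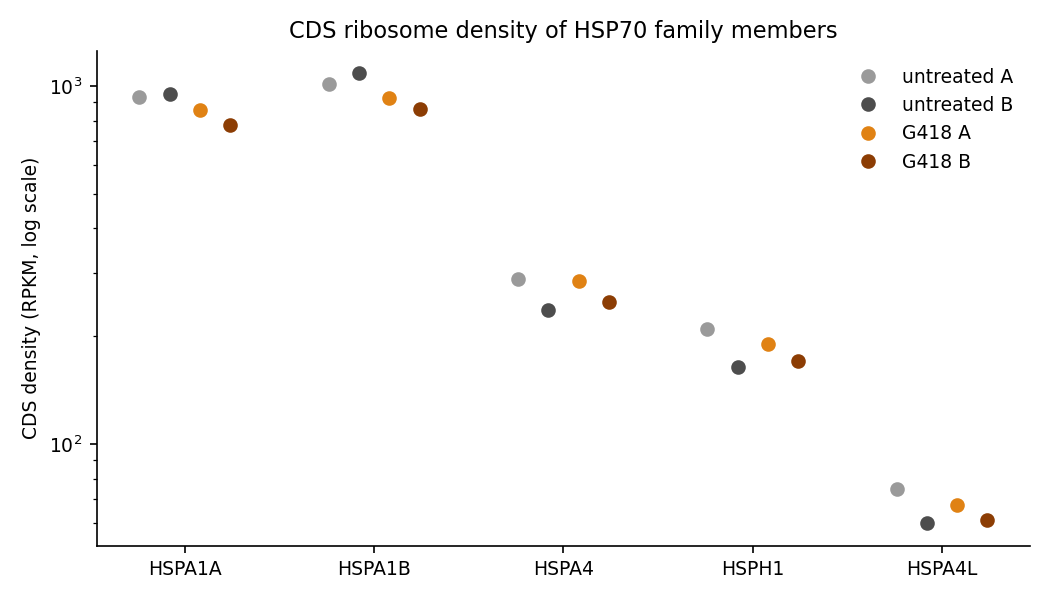
CDS density in RPKM (log axis) of the 5 listed members, 1 point per library, with untreated A and B in grey and G418 A and B in orange and brown. The G418 points lie under the untreated points for HSPA1A (858 and 778 against 931 and 949 RPKM) and HSPA1B, and among them for HSPA4, HSPH1 and HSPA4L.

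The fall of the pair is small and rests on how the libraries were scaled. With library totals in place of TMM factors, the median of all transcripts moved to 0.11 on the log2 scale, HSPA1B stood at -0.20 (adjusted p = 0.0829) and HSPA1A at -0.17 (adjusted p = 0.133), and the split of calls over all transcripts went from 451 higher and 273 lower to 887 higher and 120 lower. No member was called lower without G418 A or without G418 B, where 0.176% and 0.188% of all transcripts were, and the log2 fold changes of the pair stayed between -0.26 and -0.31. All 5 were called lower without untreated B, where 12.8% of all transcripts were.

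The 2 genes of the pair differed outside the CDS. Within the CDS, HSPA1A held 48.0%, 46.7%, 48.1% and 47.5% of the pair's reads in untreated A, untreated B, G418 A and G418 B. It held 1.40%, 1.71%, 1.83% and 1.21% of the pair's 5′UTR reads in the same order. In the 3′UTR HSPA1A had 0 reads in all 4 libraries, while HSPA1B had 28, 12, 776 and 560. With 3 reads as the upper limit that a count of 0 allows, the share of HSPA1A in the 3′UTR reads was at most 10.7%, 25.0%, 0.387% and 0.536%. Thus the near-even split of CDS reads was not seen in either UTR.

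How far a read can be placed on 1 gene of the pair differs by region. Of all 28 nt windows starting in the CDS of either gene, 94.5% (1821 of 1926) occur in the other gene. Of those starting in the 5′UTR, 13 of 293 in HSPA1A and 13 of 213 in HSPA1B do. In the 3′UTR the pair shares 0 windows. The authors kept a single alignment of each read that maps to several places, so CDS reads of the pair cannot be told apart by gene, whereas 3′UTR reads can. If HSPA1A had been read through at the RRTS of HSPA1B over its deposited CDS reads, 263 reads in G418 A and 186 in G418 B would lie before its first 3′TC, and 0 were observed.

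**Figure D2:**
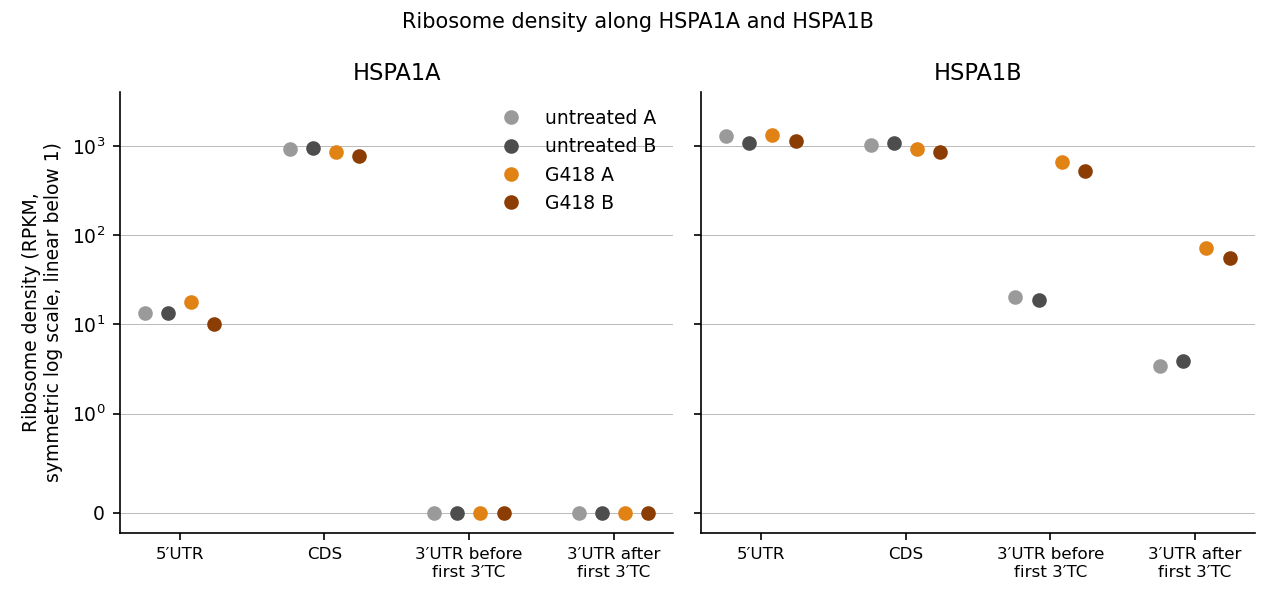
Density in RPKM (symmetric log axis, linear below 1) of HSPA1A (left) and HSPA1B (right) in the 5′UTR, the CDS and the 3′UTR before and after the first 3′TC, 1 point per library. CDS points of both genes lie close together, while HSPA1A has 0 reads in the 3′UTR of every library and HSPA1B rises in both parts of the 3′UTR with G418.

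Ribosomes beyond the NTC of HSPA1B increased strongly with G418. Reads between the NTC and the first 3′TC numbered 20 and 8 in untreated cells and 618 and 449 in G418-treated cells. The corresponding RRTS was 0.020 and 0.0171 in untreated cells and 0.718 and 0.613 in G418-treated cells, with 95% Poisson intervals of 0.663 to 0.777 and 0.557 to 0.672 for the latter (these cover counting error only). The means were 0.0185 ± 0.0020 and 0.665 ± 0.075 (SD, n = 2). In edgeR's test on reads per CDS read over 2827 transcripts, HSPA1B rose by 5.12 on the log2 scale (SE 0.18, adjusted p = 2.2e-162), and this was rank 609 of 2827 by fold change. Only 1 transcript in G418 A and 2 in G418 B had more reads in this region. Transcripts with the same UAGG signal had a median RRTS of 0.145 in G418 A and 0.154 in G418 B. With its own deposited CDS reads, HSPA1B lay above 95.6% of 365 and 93.8% of 352 of them. This standing was not recomputed with the CDS reads of the pair summed.

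The level of this score depends on the shared CDS. With the CDS reads of the pair summed, an alternative chosen after seeing the data, HSPA1B RRTS was 0.0104 and 0.00911 in untreated cells and 0.373 and 0.322 in G418-treated cells. Its rank among transcripts with that minimum of mRNA reads went from 490 to 1582 of 6014 in G418 A and from 552 to 1644 of 5681 in G418 B. The ratio of the group means hardly moved, at 35.9 with its own and 35.6 with the summed CDS reads.

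HSPA4, a nucleotide exchange factor with a UGAU signal, had 4 and 1 reads before the first 3′TC in untreated cells and 16 and 11 in G418-treated cells. Its RRTS was 0.0397 and 0.0279 in untreated cells and 0.172 and 0.147 in G418-treated cells. The 95% Poisson intervals of the groups overlapped (0.000706 to 0.155 in untreated B and 0.0983 to 0.279 in G418 A). The fitted log2 fold change was 2.09 (SE 0.70, adjusted p = 0.0045 in edgeR and 0.081 in DESeq2). HSPA4 had only 5 of its reads in untreated cells and reached the minimum of 10 reads for the test through its G418 reads, so its call is no independent evidence of a rise. The median RRTS of UGAU transcripts was 0.327 in G418 A and 0.297 in G418 B, and HSPA4 lay above 28.7% and 27.5% of them.

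HSPH1, its relative with a UAGA signal, had 9 and 1 reads before the first 3′TC in untreated cells and 18 and 14 in G418-treated cells. Its RRTS was 0.107 and 0.0348 in untreated cells and 0.251 and 0.238 in G418-treated cells, again without overlap. The fitted log2 fold change was 1.45 (SE 0.55, adjusted p = 0.0114 in edgeR and 0.125 in DESeq2), and it was 2.73 without untreated A and 1.18 without untreated B. HSPH1 lay above 68.4% of UAGA transcripts in G418 A and above 68.1% in G418 B.

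HSPA4L, with a UAAG signal, had 0 and 1 reads in untreated cells and 5 and 3 in G418-treated cells. The counted region is 18 nt long in HSPA4L, and only 7.40% of transcripts had a shorter one. With 9 reads in all it was below the minimum of 10 and was not tested. Its RRTS of 0.491 in G418 A had a 95% Poisson interval from 0.160 to 1.15, so its order relative to HSPA1B, HSPA4 and HSPH1 was not detectable at this depth. HSPA1A, with 0 reads, was not tested either.

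In edgeR all 3 members tested were called higher in RRTS, HSPA4 among them, and 82.6% of all transcripts tested were, so nothing particular to the members can be read from this count. Other transcripts could also reach the minimum through their G418 reads, so the share over all transcripts is no independent evidence of a rise. The median log2 fold change of all transcripts tested was 3.18, above the values of HSPA4 and HSPH1 and below that of HSPA1B. HSPA1B and HSPH1 reached the minimum in the untreated libraries alone (28 and 10 reads). With DESeq2 only HSPA1B of the 3 was called, where 49.8% of all transcripts tested were higher. Without G418 A the adjusted p of HSPH1 was 0.0506 in edgeR.

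**Figure D3:**
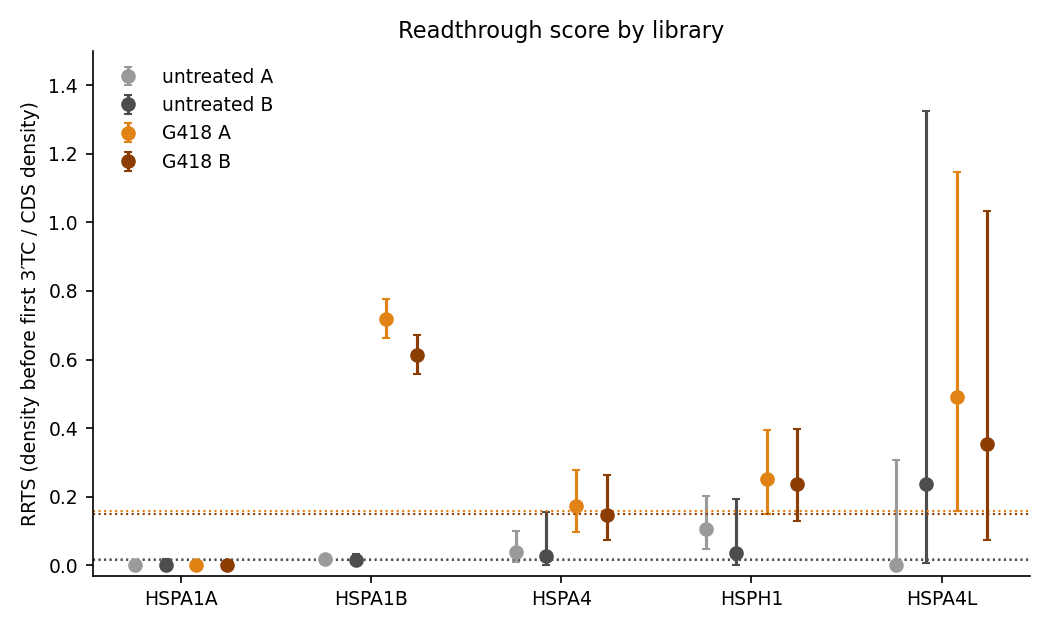
RRTS of each member, 1 point per library with its 95% Poisson interval, and the RRTS over all transcripts of each library as a dotted line. The G418 points of HSPA1B, over its own deposited CDS reads (0.718 and 0.613), stand far above the dotted lines (15.8% and 15.0%). With the pair's CDS reads summed they would be 0.373 and 0.322. The G418 points of HSPA4 and HSPH1 lie nearer to the lines, HSPA1A is at 0, and the intervals of HSPA4L span much of the axis.

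Past the first 3′TC, reads on HSPA1B rose with G418, and those on the other 3 members tested did not pass the test. HSPA1B had 8 and 4 reads there in untreated cells and 158 and 111 in G418-treated cells. Reads per CDS read rose by 4.34 on the log2 scale (SE 0.35, adjusted p = 3.5e-31 in edgeR over 2065 transcripts), rank 221 by fold change. In G418-treated cells, density past the first 3′TC was 10.9% (95% exact binomial interval 9.07 to 13.0) and 10.5% (8.46 to 13.0) of the density before it, both above the 4.21% and 4.26% over all transcripts of those libraries. In untreated cells it was 17.0% and 21.3%, on few reads. Each percent is a mean over the whole region past the first 3′TC, with its later 3′TCs. That region is 261 nt in HSPA1B, 144 nt in HSPA4L, 1968 nt in HSPA4 and 2218 nt in HSPH1. The percent over all transcripts mixes regions of every length. So these percents do not compare passage of the first 3′TC alone, which was not tested. The next 3′TCs of HSPA1B start 196, 202 and 337 nt after the NTC, and the tables do not split reads among them.

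HSPA4 had 4 and 3 reads past the first 3′TC in untreated cells and 6 and 3 in G418-treated cells (log2 fold change 0.06, SE 0.79, adjusted p = 0.955 in edgeR). HSPH1 had 50 and 14 in untreated cells and 35 and 23 in G418-treated cells (log2 fold change -0.35, SE 0.31, adjusted p = 0.374). HSPA4L had 0 and 2 in untreated cells and 7 and 3 in G418-treated cells (log2 fold change 1.99, SE 1.06, adjusted p = 0.114). Thus 1 of 4 members tested was higher, beside 43.2% of all transcripts tested. HSPA4 and HSPA4L had 7 and 2 such reads in untreated cells and reached the minimum of 10 only with their G418 reads. HSPA1B and HSPH1 reached it in the untreated libraries alone (12 and 64 reads). Other transcripts could also reach it through their G418 reads, so the share over all transcripts is no independent evidence of a rise. For HSPH1 the counted region before the first 3′TC is 45 nt and the region past it 2218 nt. The share of its 3′UTR reads before the first 3′TC was 15.3% and 6.67% in untreated cells and 34.0% and 37.8% in G418-treated cells. Most of its 3′UTR reads thus lay past the first 3′TC in every library, while density was higher before it. Density past the first 3′TC was 11.3% and 28.4% of that before it in untreated cells, on 9 and 1 reads before it. In G418-treated cells it was 3.95% and 3.33%. Over the whole 3′UTR the log2 fold change of HSPH1 per CDS read was 0.08 (adjusted p = 0.775 in edgeR), while that of HSPA1B was 4.93.

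**Figure D4:**
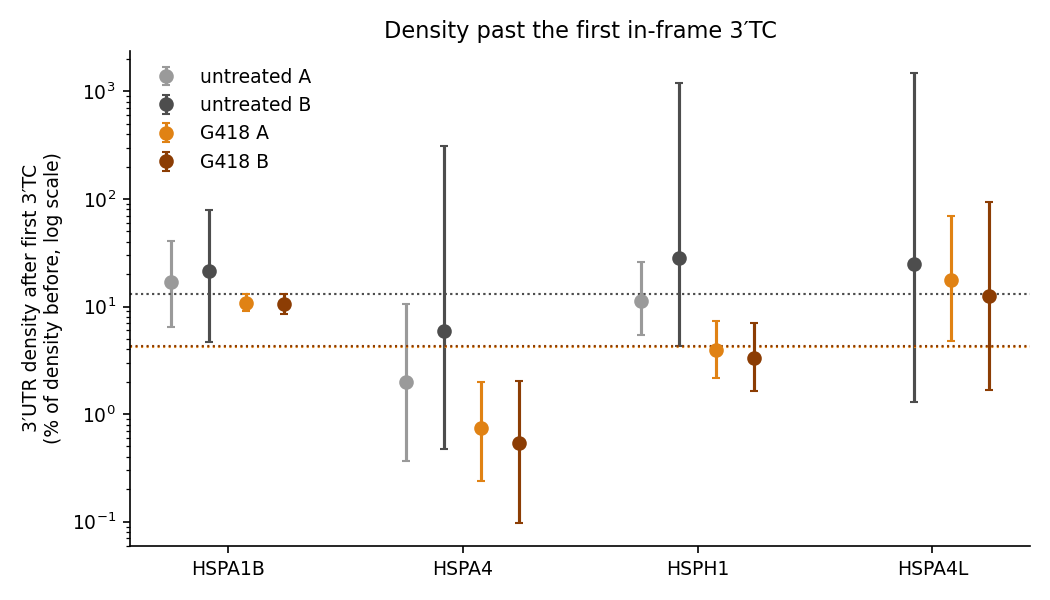
Density after the first 3′TC as a percent of the density before it (log axis), 1 point per library with its 95% exact binomial interval, and the value over all transcripts of each library as a dotted line. HSPA1B lies above the G418 lines at 10.9% and 10.5%, HSPA4 below them at 0.743% and 0.540%, and HSPH1 near them at 3.95% and 3.33%. The region after the first 3′TC is 261 nt in HSPA1B, 1968 nt in HSPA4 and 2218 nt in HSPH1. The percents therefore do not compare passage of the first 3′TC alone.

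In the 5′UTR, HSPA1B had 2395 and 861 reads in untreated cells and 2301 and 1791 in G418-treated cells, rank 3 of all listed transcripts in every library. Its 5′UTR density was 1.28 and 0.986 times its CDS density in untreated cells and 1.43 and 1.31 times in G418-treated cells. With the summed CDS reads of the pair these values were 0.667 and 0.526 in untreated cells and 0.744 and 0.688 in G418-treated cells. HSPA1A had 34 and 15 5′UTR reads in untreated cells and 43 and 22 in G418-treated cells. HSPA4 had 309 and 187 against 237 and 231, HSPH1 143 and 76 against 132 and 83, and HSPA4L 36 and 14 against 26 and 28.

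Per CDS read, 0 of 5 members changed in the 5′UTR with G418 in edgeR at an adjusted p of 0.05, beside 1.72% of 3656 transcripts tested. At an unadjusted p of 0.05 edgeR gave 1 higher, HSPA1B (log2 fold change 0.27, SE 0.09, adjusted p = 0.169), and 1 lower, HSPA4 (-0.52, SE 0.21, adjusted p = 0.266). DESeq2 gave 0 at either threshold. The share of all transcripts at the unadjusted threshold is not given here, so nothing particular to the members can be read from these counts. Without untreated A, the deepest untreated library, edgeR called 3 members (HSPA1B at 0.48, HSPA4 at -0.89 and HSPH1 at -0.69), beside 11.7% of all transcripts in that fit.

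CDS reads of the partners of HSP70 were called changed about as often as those of other transcripts. Of 62 genes in 5 lists, 47 were listed in a table and 46 tested. G418-treated cells had 3 of them higher and 1 lower, which is 6.52% and 2.17% of those tested, close to the shares over all transcripts. The median log2 fold change was -0.01, beside 0.00 over all transcripts.

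Among 19 J proteins tested, 2 were higher and 0 lower in edgeR. At an unadjusted p of 0.05, 5 were higher and 0 lower in edgeR, and 2 and 0 in DESeq2, which called 0. The share of all transcripts at this unadjusted threshold is not given here, so no lean of the J proteins can be read from these counts. DNAJB2, a J protein known from neurons that delivers substrates for degradation, had 5.73 and 1.93 RPKM in untreated cells and 12.5 and 10.6 RPKM in G418-treated cells (log2 fold change 1.29, SE 0.27, adjusted p = 0.0019 in edgeR). Its log2 fold change was 2.43 without untreated A and 0.98 without untreated B. DNAJC3, a J protein of the endoplasmic reticulum, had 26.4 and 22.6 RPKM in untreated cells and 35.5 and 32.8 RPKM in G418-treated cells (0.39, SE 0.12, adjusted p = 0.0318). The groups overlapped for neither gene. DNAJB1, the heat-inducible J protein of the cytosol, had 89.9 and 89.3 RPKM in untreated cells and 98.8 and 88.8 RPKM in G418-treated cells (-0.00, adjusted p = 0.989). DNAJC2, which works with HSPA14 at the ribosome, had a log2 fold change of 0.24 (adjusted p = 0.194). HSCB was not analysed here.

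Of 9 linkers and HSP90 partners tested, 1 was higher. This was STUB1, a ubiquitin ligase that binds HSP70 and HSP90, with 59.2 and 62.6 RPKM in untreated cells and 96.3 and 88.9 RPKM in G418-treated cells (0.55, SE 0.11, adjusted p = 0.0014 in edgeR). Of 10 nucleotide exchange factors and BAG proteins, 1 was lower: BAG6, which guards hydrophobic segments of new proteins, had 99.9 and 106 RPKM in untreated cells and 88.3 and 86.6 RPKM in G418-treated cells (-0.30, SE 0.09, adjusted p = 0.0267). BAG3 (-0.13, adjusted p = 0.506) and GRPEL1 (-0.18, adjusted p = 0.264), the exchange factor for mitochondrial HSPA9, did not pass the test. DNAJC3 (adjusted p = 0.209) and BAG6 (adjusted p = 0.0713) were not called by DESeq2, which gave no adjusted p for DNAJB2.

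Of 10 heat shock response genes tested, 0 were higher and 0 lower in edgeR, with 0 higher and 1 lower at an unadjusted p of 0.05, and DESeq2 gave 0 at either threshold. HSF1, the factor that drives the response, had 20 and 27.1 RPKM in untreated cells and 28.6 and 26.0 RPKM in G418-treated cells (0.19, SE 0.14, adjusted p = 0.433 in edgeR). The list's median was -0.04. Of the 4 other HSP70 genes tested, 0 were called in edgeR, 2 were lower at an unadjusted p of 0.05 (1 in DESeq2), and the median was -0.23. Without the share of all transcripts at that unadjusted threshold, no lean of either list can be read from the unadjusted counts. HSPA5, the HSP70 of the endoplasmic reticulum, was not analysed here.

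**Figure D5:**
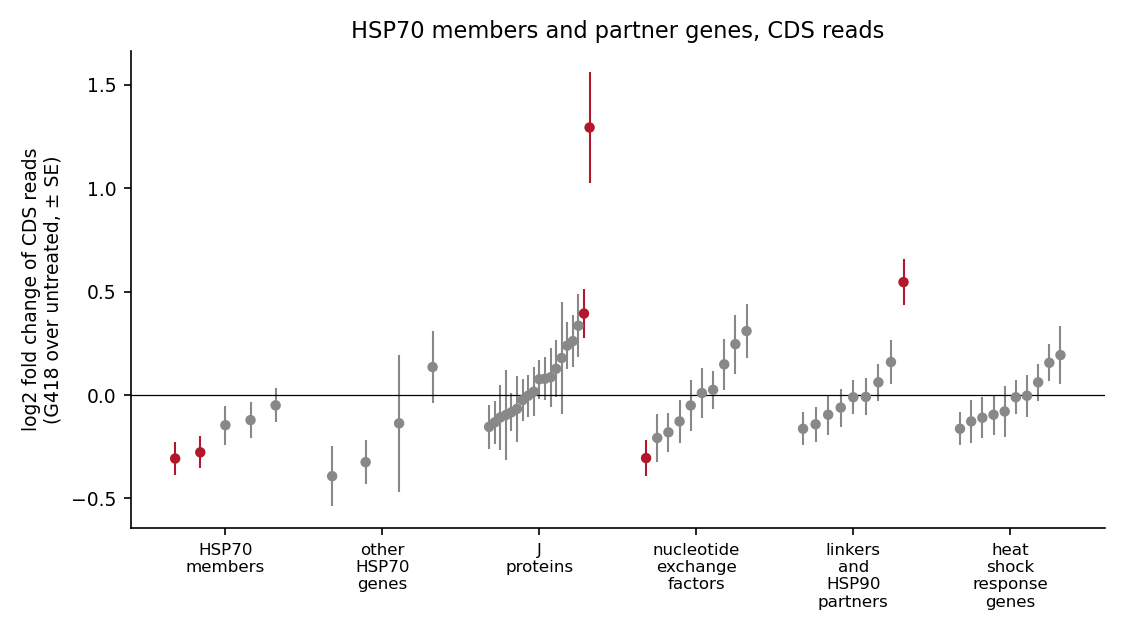
Log2 fold change of CDS reads (G418 over untreated, ± SE) for the 5 members and the tested genes of 5 partner lists, 1 point per gene and sorted within each list, with genes called at an adjusted p of 0.05 in red. HSPA1B and HSPA1A (-0.31 and -0.28) and BAG6 (-0.30) are the red points below 0, and DNAJB2 (1.29), STUB1 and DNAJC3 those above it.

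Among transcripts with enough reads, partner mRNAs were called higher in RRTS about as often as others. Of 30 partner genes with enough reads, 26 were higher and 0 lower in RRTS (86.7%, beside 82.6% of all transcripts tested), with a median log2 fold change of 3.17. Reads before the first 3′TC numbered 10533 and 4041 in the untreated libraries and 76369 and 61316 in the G418 libraries. A gene could therefore reach the minimum through its G418 reads, so neither share is independent evidence of a rise. The CDS pattern most like that of the summed pair over the 4 libraries, by Euclidean distance between log2 CPM centered on each transcript's mean, was that of U2AF1 (distance 0.0199), followed by WBP2 (0.0239) and ACTB (0.0240), among 7209 transcripts. These are descriptions over 4 libraries, whose depth and scaling are common to all transcripts.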

How the data were processed

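Libraries of full-length RPFs came from 2 untreated and 2 G418-treated replicates. Per the study's methods, the authors merged duplicate reads by their molecular identifiers, removed noncoding RNA, aligned with STAR to hg38 guided by GENCODE version 30, kept 1 alignment per read that maps to several places, and used 1 transcript per gene. The submitters' processing notes also name CASAVA 1.8.

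The deposited counts are RPFs per CDS without normalization. The deposited RPM values per region are scaled by the authors to reads mapped in each library, and 100% were whole multiples of 1 read (within 0.01), so whole reads were recovered. The authors' RPKM densities leave out the ends of each region (6 nt after the NTC). The deposited RRTS is a ratio, recomputed from reads. The deposited 5′UTR density, a score, was not used. Each table lists transcripts of at least 1 RPKM in the CDS.

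CDS counts of transcripts in all 4 tables were tested with edgeR 4.0.16 (R 4.3.3, TMM, filter on low counts). Reads before and after the first 3′TC (at least 10 over the libraries) and in the 5′UTR (at least 20) were tested in edgeR with log(CDS reads + 0.5) as offset, for transcripts with the study's minimum of mRNA reads (of CDS reads for the 5′UTR) per condition. Adjusted p = 0.05 was the threshold, and SE is the fold change over the root of F. DESeq2 1.42.0, library totals, other minimums, a replicate block, the pair summed and single libraries left out were alternatives. The CDS test and the test before the first 3′TC were checked on simulated data, and the other tests were not. The simulated CDS changes were larger than the fall of the pair, and a smaller share of transcripts rose than in these data. The check therefore does not cover the tests as used here. Python 3.11.15, pandas 2.3.3 and scipy 1.17.1 were used. Intervals cover counting error only.

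Sequences and coordinates are from GENCODE version 44 on hg38, where CDS length, 4 nt signal and 3′TCs of the members equalled the deposited values. The members and gene lists were chosen with earlier results of these data known. Named are the members, the partner genes with the 3 largest rises and falls (only 1 fell) among those past the threshold and changed alike in A and B, HSPA5, HSF1, DNAJB1, BAG3, DNAJC2, GRPEL1 and HSCB, and the 3 transcripts nearest to the pair. A marker gene of another cell type is not reported here.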

Additional observations from a re-analysis of the deposited data

How the results depend on the processing

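The rise of HSPA1B before and after the first 3′TC kept its direction and its call under each alternative run, with log2 fold changes of 5.0 to 5.27 and 4.19 to 4.46 when single libraries were left out. The 2 members lower in CDS reads were 0 with library totals and 0 with transcripts of any table, at log2 fold changes of -0.28 (HSPA1A, adjusted p = 0.0526) and -0.31 (HSPA1B, adjusted p = 0.0535) as before, and 0 to 5 with single libraries left out (0.176% to 12.8% of all transcripts lower), where the lone library of an arm is assumed to vary like the others. DESeq2 kept both, while its calls over all transcripts were 113 higher and 140 lower beside 451 and 273. The 3 members higher in RRTS were 1 with DESeq2, where 49.8% of all transcripts were higher, beside 82.6% in edgeR. With at least 5 reads HSPA4L stood at 2.53 (adjusted p = 0.0753), and over the whole 3′UTR at 2.27 (adjusted p = 0.0132), but it passed either minimum only through its G418 reads. The members changed in the 5′UTR numbered 0 to 3 with single libraries left out (0.243% to 11.7% of all transcripts). The 3 partner genes higher were 1 with DESeq2 and 6 with library totals, where 1.33% and 10.4% of all transcripts were higher. The 1 partner gene lower was 0 with DESeq2, 0 with library totals, 0 with transcripts of any table and 0 to 7 with single libraries left out. The cause was not tested. Replicate letters are shared without a stated common batch (correlation of A minus B between conditions 0.14). With the replicate block 2 partner genes were lower, beside 5.32% of all transcripts, and no member's call changed. Signs turned, without a call, for HSPA4 in CDS reads with library totals (0.054) and for HSPA4 after the first 3′TC with DESeq2 (-0.13). With single libraries left out they turned for HSPA4 (-0.13 to 0.042) and HSPH1 (-0.23 to 0.0033) in CDS reads, HSPA4 after the first 3′TC (-0.62 to 0.42), and HSPA1A (-0.14 to 0.55) and HSPA4L (-0.29 to 0.082) in the 5′UTR. With the pair's CDS reads summed, chosen after seeing the data, mean HSPA1B RRTS went from 0.665 to 0.347 and from 0.0185 to 0.00975. Below about 10 reads per region, as in HSPA4L, depth limits what can be seen.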

Other observations

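HSPA1L, the third HSP70 gene of the same chromosome 6 cluster, was looked at after its values were seen. It had 951 and 453 CDS reads in untreated cells and 751 and 738 in G418-treated cells, and 0 reads in the 5′UTR and 0 in the 3′UTR of all 4 libraries. Its log2 fold change in CDS reads was -0.32 (SE 0.11, adjusted p = 0.0537 in edgeR). Of 28 nt windows starting in its CDS, 7.27% occur elsewhere in hg38, and 0 of those starting in its UTRs do. Because 1 alignment was kept per read, some of its CDS reads could come from other genes. How many was not tested. At the RRTS over all transcripts of each library, 15.6 reads in G418 A and 14.5 in G418 B would lie before its first 3′TC. This expectation takes all its deposited CDS reads as its own.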
